A study of Drosophila melanogaster with 21 samples.

Results

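A set of 196 long non-coding and antisense RNAs of Drosophila S2R+ cells was followed across 7 groups of RNA-seq libraries. Its members are the genes whose FlyBase symbol starts with lncRNA:CR or asRNA:CR and which were selected on their mean level over the 21 libraries, at least 1 CPM (counts scaled to equal library totals). The tables hold 17558 gene IDs, of which 2236 carry such a symbol, 1775 as lncRNA and 461 as asRNA. Of these, 2039 fell below the threshold, 931 of them with no count in any library, and 1 further RNA above it is not analysed here. The 196 members are 115 lncRNAs and 81 asRNAs. Because the level in these libraries chose them, levels are given as a description, and no comparison with the control took part in the choice. A mean over all groups can be carried by 1 high group, however: 11 members had a control mean under 1 CPM and 26 had at least 1 group mean under 1 CPM. Just inside the threshold lay lncRNA:CR45994 at 1.004 CPM and asRNA:CR46055, with 46.8% of its exon bases free of other genes, at 1.02 CPM, and just outside it lay lncRNA:CR46035 at 0.993 CPM and lncRNA:CR45184 at 0.972 CPM.

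Long non-coding RNAs are capped transcripts made by RNA polymerase II that carry no long conserved reading frame. Many are polyadenylated and spliced like messenger RNAs, and those that lie antisense to a coding gene share its locus but are read from the other strand. In the fly, a few are known for defined roles, such as the roX RNAs of dosage compensation and the heat shock RNA Hsromega, while most of the genes known only by a CR number have no described function. N6-methyladenosine (m6A) is deposited on messenger and non-coding transcripts by a methyltransferase complex and is bound by proteins with a YTH domain. In nuclei, unstable non-coding transcripts are removed by the RNA exosome and its cofactors.

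The study depleted parts of the m6A machinery from S2R+ cells, an adherent derivative of the embryonic, plasmatocyte-like S2 line, and sequenced poly(A)-selected RNA. The 7 groups, with 3 libraries each, are Control, Ime4 (the methyltransferase Mettl3 of the current annotation), CG7818 (its partner Mettl14), Ime4_CG7818 (both), Fl2d (fl(2)d, the fly homologue of the complex member WTAP), CG6422 (the cytoplasmic reader Ythdf) and YT521 (the nuclear reader Ythdc1). In the Ime4_CG7818 libraries the genotype field names only Ime4, and the title, which names both genes, was followed. All groups are the same cell line, and the labels do not give the depletion reagent or the treatment of the control. They do not say whether the 3 libraries of a group come from separate cultures, so p-values measure the spread between these libraries, which may be technical.

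The libraries held 20214568 to 28296393 gene counts (median 22126193), so 1 CPM stands for about 22.1 counts in the median library. Each targeted gene stood at 8.66% to 25.8% of its control level in its own depletion. Poly(A) selection limits what can be seen to RNAs with a poly(A) tail. Of 12 plasmatocyte marker genes matched, 10 had at least 1 CPM, with summed levels of 684 to 933 CPM over the libraries. Muscle markers summed to at most 0.295 CPM and fat body markers to at most 0.297 CPM, with Lsp1alpha at 0. The remaining lists were higher. Germline markers summed to 202 to 246 CPM and lamellocyte markers to 317 to 446 CPM. Neuron markers summed to 15.3 to 23.5 CPM and crystal cell markers to 2.07 to 4.22 CPM. In bulk samples, fewer cells of a type and less RNA per cell cannot be told apart. A pair of libraries stood apart: the mitochondrial large ribosomal RNA (mt:lrRNA) made up 1.93% of the gene counts of Fl2d replicate 1. It made up 2.89% of those of YT521 replicate 2 and 5.61% to 8.62% of those of the remaining 19. Counts of members called are therefore given with and without this pair. Without it, the share of all genes called is given for each single depletion compared with the control. The other counts without the pair have no such share beside them.

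The members are a small and shorter class of RNA. Together they took 0.202% to 0.260% of the gene counts of a library, with group means from 0.220% ± 0.018 (SD, n = 3) in Fl2d to 0.254% ± 0.0056 in YT521 and 0.243% ± 0.0082 in the control. Their merged exons spanned a median of 918 bases (205 to 10235), against a median of 2135 bases for the 7088 coding genes of at least 1 CPM, and 89 of the 196 had a single exon block. Their median level was 2.90 CPM, against 42.2 CPM for those coding genes. Per kilobase of exon the medians were 3.26 CPM for the members and 18.8 CPM for the coding genes. The level spread widely: 39 members reached 10 CPM, 8 reached 50 CPM and 3 reached 100 CPM. Per kilobase of exon, lncRNA:CR32368 stood highest at 669 CPM, ahead of lncRNA:CR43264 at 306 CPM, lncRNA:CR44526 at 131 CPM, lncRNA:CR43144 at 100.4 CPM and lncRNA:CR42862 at 88.8 CPM.

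By position in a later Ensembl annotation, 115 members overlapped a coding gene on the other strand, 17 overlapped one on the same strand, 5 did both, and 59 lay between coding genes. A coding gene started within 1 kb in the opposite direction for 55 members. The members lay on chromosome arms 3L (48), 2R (39), 3R (36), X (36), 2L (27) and 4 (10). A median of 85.9% of a member's exon bases were free of any other gene's exons, with 100% for the lncRNAs and 29.8% for the asRNAs. All exon bases were free in 77 members, under 10% were free in 15 and none in 5. For overlapping members the strand of the counting matters, and neither the strand setting nor the annotation release used for counting is given in the sources used here. Of 126 genes that lie wholly under exons of the other strand, 102 had counts, which a count that ignores strand would not give under these gene models, and 32 reached 1 CPM. Reads that matched no gene made up 1.46% to 1.91% of counted reads, where counting by strand on reads that do not carry it would place about as many reads there as in the genes. Values of members with few free exon bases remain uncertain all the same, and the free share is given where such a member is described.

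**Figure D1:**
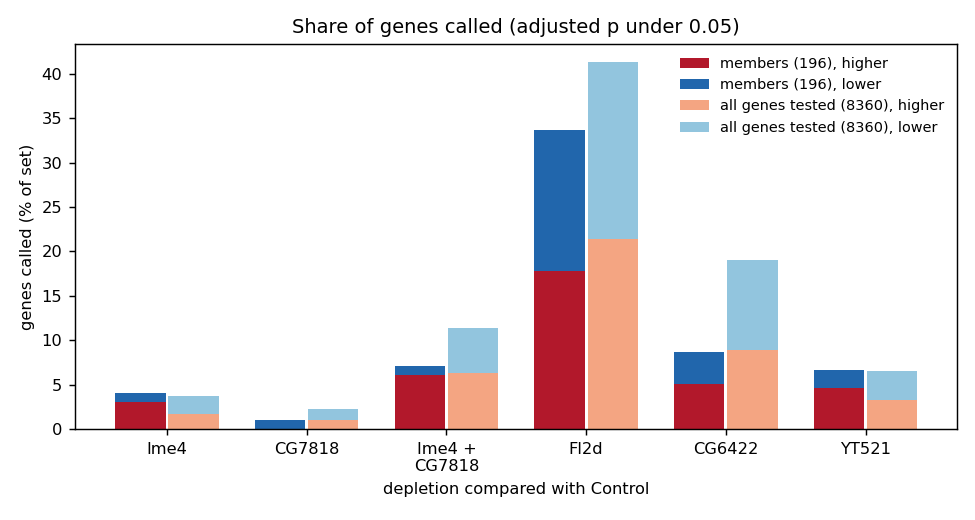
Share of the 196 members (dark bars) and of all 8360 genes tested (light bars) called higher (red) or lower (blue) than the control in each depletion, in percent of each set, by the adjusted p of edgeR. In Fl2d, 33.7% of the members and 41.3% of all genes were called, and in CG6422 8.67% and 19.1%, where at 5 CPM or more the shares were 25.4% and 21.5%.

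All 196 members passed the filter on low counts and were tested among 8360 genes, 7730 of them protein-coding. A gene was called where the p of the quasi-likelihood test in edgeR, adjusted over all 8360 genes by the Benjamini-Hochberg method, was under 0.05. A test of any difference among the 7 groups called 93 members, or 47.4%, against a background of 54.8% of all genes tested. By level, 27 of 39 members of at least 10 CPM were called (69.2%, against 60.5% of all genes at that level), 31 of 57 between 3 and 10 CPM (54.4%) and 35 of 100 between 1 and 3 CPM (35.0%). The classes of 3 to 10 and of 1 to 3 CPM have no share over all genes of like level beside them. Without the pair low in mitochondrial ribosomal RNA the test called 95 members, 82 of them among the 93. The median coefficient of variation between control replicates was 10.9% for members and 5.07% for coding genes, sets of unlike level. Whether members scatter more than coding genes of like level was not tested. The median ratio of a member's highest to its lowest group mean was 1.47, against 1.24 for coding genes, and 28 members reached a ratio of 2. Most often the lowest group mean was that of Fl2d (70 members) and the highest that of YT521 (60 members), followed by Fl2d (47 members). These counts lack a share over all genes tested, and neither the ratios nor the coefficients of variation were matched for level. They are a description of the members only. The 6 comparisons below share the 3 control libraries, so a high or low control value enters all of them.

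The most abundant member, lncRNA:CR42862, fell in Ime4, Fl2d and CG6422. It spans 5485 exon bases on 3L (224106 to 230964, plus strand) and overlaps CG33229 on the same strand, with 95.5% of its exon bases free. Its control libraries stood at 617, 579.8 and 618 CPM, Ime4 at 441, 444 and 460.3 CPM, Fl2d at 291, 396 and 409 CPM and CG6422 at 432, 377 and 410.2 CPM. None of these 9 depleted libraries reached the lowest control library. The log2 fold changes were -0.43 ± 0.08 (SE), adjusted p = 0.00425 in Ime4, -0.73 ± 0.08 (SE), adjusted p = 6.37e-07 in Fl2d and -0.57 ± 0.08 (SE), adjusted p = 0.000147 in CG6422. In CG7818, Ime4_CG7818 and YT521 the means of 547 ± 23 CPM, 508 ± 9.9 CPM and 527 ± 22 CPM also lay below the control without passing the test (log2 fold changes -0.14, -0.25 and -0.20). Its overlapped gene CG33229 was called in none of the 6 comparisons, with log2 fold changes from -0.17 to 0.14. Between the readers, lncRNA:CR42862 was higher in YT521 than in CG6422 (0.37 ± 0.08 SE on the log2 scale, adjusted p = 0.00407).

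The next member by level, lncRNA:CR32368, is a single exon of 410 bases on 3L (7915437 to 7915846, plus strand) that starts divergently from Tmem43. It stood at 265, 241 and 248 CPM in the control libraries and at 335, 306 and 326 CPM in Fl2d, where every library lay above every control library (0.36 ± 0.06 SE on the log2 scale, adjusted p = 4.13e-05). In CG6422 it stood at 299, 283 and 288 CPM (0.21 ± 0.06 SE on the log2 scale, adjusted p = 0.0152), a call lost without CG6422 replicate 1 (adjusted p = 0.0534) or without Control replicate 2 (adjusted p = 0.0809). Tmem43 itself was not called in Fl2d (0.14 ± 0.08 SE on the log2 scale, adjusted p = 0.172).

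A more variable RNA, lncRNA:CR43264, is a single exon of 318 bases on X (5831898 to 5832215, minus strand), antisense to CG15765 with all its exon bases free. It rose in Ime4_CG7818, Fl2d and CG6422. The control libraries stood at 70.3, 50.7 and 61.1 CPM, Ime4_CG7818 at 144, 136 and 113 CPM, Fl2d at 71.7, 152 and 127 CPM and CG6422 at 93.8, 109 and 90.9 CPM. Every one of these depleted libraries lay above every control library, although Fl2d replicate 1, at 71.7 CPM, exceeded the highest control library only just. The log2 fold changes were 1.11 ± 0.20 (SE), adjusted p = 0.000911 in Ime4_CG7818, 0.95 ± 0.20 (SE), adjusted p = 0.000797 in Fl2d and 0.69 ± 0.20 (SE), adjusted p = 0.0199 in CG6422. The CG6422 call was lost without CG6422 replicate 2 (adjusted p = 0.0978), Control replicate 2 (0.107) or Control replicate 3 (0.0512). In Ime4 and CG7818 the libraries were also all above the control (99.2 ± 1.6 CPM and 91.6 ± 7.6 CPM), with adjusted p of 0.0517 and 0.139.

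**Figure D2:**
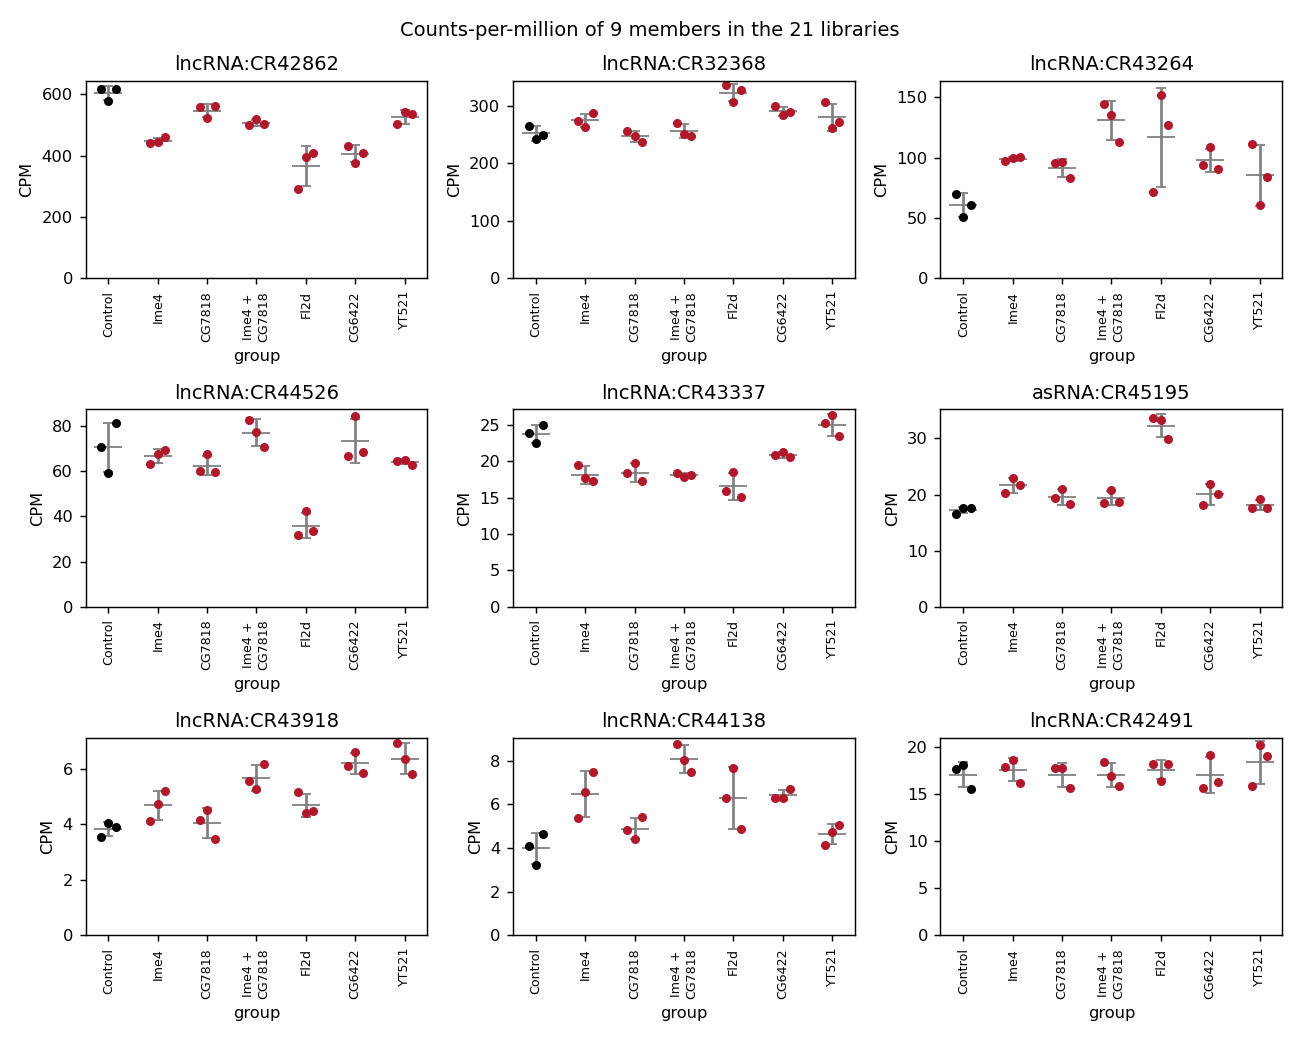
CPM (scaled by library size with TMM) of 9 members in each library, 3 points per group with control in black and depletions in red, and grey bars for the group mean ± SD (n = 3). lncRNA:CR44526 and asRNA:CR45195 stand apart in Fl2d, at 35.9 CPM against 70.4 CPM and at 32.3 CPM against 17.2 CPM in the control, while lncRNA:CR42491 lies between 17.1 CPM and 18.4 CPM in every group mean.

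Between these in level, lncRNA:CR43459 on 3R (10093761 to 10101356, plus strand), near Fmr1, was called in no comparison with the control. Its group means ran from 138 ± 26 CPM in Fl2d to 194 ± 6.2 CPM in Ime4 around a control of 159 ± 3.3 CPM. The abundant lncRNA:CR46064 on 2R and lncRNA:CR45334 and lncRNA:CR43144 on 2L were likewise called in none. Their control means were 77.0 ± 2.4 CPM, 73.0 ± 5.4 CPM and 54.7 ± 2.7 CPM. In Fl2d, where most calls fell, they stood at 69.0 ± 9.3 CPM, 68.5 ± 7.5 CPM and 52.1 ± 9.5 CPM, and each overlapped the control.

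Depletion of Fl2d called more members than any other, 35 higher and 31 lower, which is 33.7% of the 196 against a background of 41.3% of all genes tested. Backgrounds by direction were 21.4% higher and 19.9% lower. In 58 of the 66 the Fl2d and control libraries did not overlap, and over all members the groups did not overlap in 79, or 40.3%, against 45.8% of all genes tested. The median log2 fold change was -0.06 over the members and 0.01 over all genes. A change of at least 2-fold was called in 11 members, against a background of 3.76%, that is 314 of all 8360 genes. Leaving out the pair of libraries low in mitochondrial ribosomal RNA gave 35 higher and 22 lower, 53 of them among the 66, where 34.8% of all genes tested were called. Leaving out any 1 of the Fl2d or control libraries gave 57 to 72 calls. Of the 7 cell type lists, 3 did not overlap between Fl2d and the control. That of lamellocytes, a further blood cell type, lay above the control in Fl2d, at 378 to 446 CPM against 319 to 340 CPM. Of its 3 genes, PPO3 and mys reached 1 CPM and atilla was at 0. The sum does not show which of these genes carries it, so it is not a measure of the cell type. The fat body list, with none of its 4 genes at 1 CPM, summed to 0.0947 to 0.297 CPM in Fl2d against 0.0441 to 0.0711 CPM, and the germline list, with 2 genes matched, to 202 to 210 CPM against 214 to 228 CPM. The part of these lists in the results was not tested.

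By position, 46 of the 115 members antisense to a coding gene were called in Fl2d (25 higher, 21 lower), 16 of 59 between genes (9 higher, 7 lower), 2 of 17 on the same strand (1 each way) and 2 of 5 on both strands (both lower). By level, 6 higher and 10 lower calls fell among the 39 members of at least 10 CPM, where 45.0% of all genes at that level were called. Between 1 and 3 CPM, 16 higher and 12 lower calls fell among the 100 members. By exon structure, 10 of 89 members with a single exon block were called higher and 16 lower, against 25 higher and 15 lower of the 107 with more blocks. The median log2 fold change was -0.15 in the former and 0.09 in the latter, and whether these classes differ was not tested. The classes by position, by exon structure and of 1 to 3 CPM have no share over all genes of the same class beside them. On the small chromosome 4, 4 of 10 members were called, 3 of them lower, where 40 of the 83 genes tested there were called lower and 2 higher.

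Among the members that rose in Fl2d, asRNA:CR45195 had the smallest adjusted p of all members in the test over 7 groups (5.86e-08). It lies on 3R (10876834 to 10877783, minus strand) antisense to Sodh2, a sorbitol dehydrogenase gene, with 13.9% of its exon bases free. The control libraries stood at 16.6, 17.6 and 17.6 CPM and the Fl2d libraries at 33.6, 33.2 and 30.0 CPM. All Fl2d libraries lay far above both the control and the other 5 depletions, whose means ran from 18.1 ± 0.96 CPM in YT521 to 21.6 ± 1.3 CPM in Ime4. The log2 fold change in Fl2d was 0.90 ± 0.08 (SE), adjusted p = 8.29e-09. In Ime4 it was 0.33 ± 0.08 (SE), adjusted p = 0.0201, a call lost without Control replicate 1 (adjusted p = 0.0837), Control replicate 2 (0.0604), Ime4 replicate 2 (0.111) or Ime4 replicate 3 (0.0565). Sodh2 stood at 5.05 ± 0.89 CPM in the control and 5.95 ± 0.27 CPM in Fl2d and was not called (0.23 ± 0.14 SE on the log2 scale, adjusted p = 0.183).

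Other members that rose in Fl2d were asRNA:CR45108, asRNA:CR44960, lncRNA:CR31044, lncRNA:CR45054 and lncRNA:CR45036. On 2R, asRNA:CR45108 is antisense to cn, the kynurenine 3-monooxygenase gene of the eye pigment pathway, with 43.3% of its exon bases free. It stood at 2.12, 2.05 and 1.29 CPM in the control and 4.21, 3.84 and 4.02 CPM in Fl2d, with no overlap (1.12 ± 0.17 SE on the log2 scale, adjusted p = 2.41e-05), while cn was not called (0.21, adjusted p = 0.497). On X, asRNA:CR44960 went from 1.68, 1.63 and 1.29 CPM to 3.44, 3.22 and 2.92 CPM (1.04 ± 0.15 SE on the log2 scale, adjusted p = 1.4e-05). Again no library of the depletion reached down to the control, and 44.6% of the exon bases are free. The intergenic lncRNA:CR31044 on 3R, downstream of the translation elongation factor gene eEF1gamma, stood at 6.60, 5.25 and 4.94 CPM in the control and 9.18, 11.2 and 10.8 CPM in Fl2d (0.89 ± 0.12 SE on the log2 scale, adjusted p = 5.96e-06). The intergenic lncRNA:CR45054 on 3R (1.05 ± 0.23 SE on the log2 scale, adjusted p = 0.00125) and lncRNA:CR45036 on 3L (0.91 ± 0.22 SE on the log2 scale, adjusted p = 0.00254), antisense to CG6163 with 83.3% of its exon bases free, rose without overlap of the groups.

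The largest rise in Fl2d by log2 fold change rested on a split group. On X (12717624 to 12730953, minus strand), lncRNA:CR43963 lies on the same strand as Smr, a SANT domain corepressor gene. It stood at 1.59, 1.01 and 1.09 CPM in the control and 1.147, 6.68 and 6.08 CPM in Fl2d. Fl2d replicate 1 lay within the control range while the other libraries were several times higher, so the groups overlap despite the call (1.92 ± 0.42 SE on the log2 scale, adjusted p = 0.000937). Smr also rose (0.74 ± 0.09 SE on the log2 scale, adjusted p = 2.6e-06), from 98.1 ± 2.7 CPM to 164 ± 13 CPM. Unspliced reads of a coding gene cannot be told apart from those of a member on the same strand of the locus, here or at the other same-strand members.

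Among the members that fell in Fl2d, the smallest adjusted p was that of lncRNA:CR44526, a single exon of 489 bases on 3L (8692703 to 8693191, plus strand). Its nearest coding gene is hry, 13450 bases away on the same strand, which encodes the transcriptional repressor Hairy. The member stood at 70.8, 59.4 and 81.1 CPM in the control and 31.9, 42.4 and 33.5 CPM in Fl2d. All Fl2d libraries lay below every library of every other group, the lowest of which was a control library at 59.4 CPM (-0.97 ± 0.11 SE on the log2 scale, adjusted p = 6.28e-07). No other depletion was called, with log2 fold changes from -0.17 in CG7818 to 0.13 in Ime4_CG7818. The neighbour hry fell in Fl2d as well, from 88.4 ± 7 CPM to 49.8 ± 9.1 CPM (-0.83 ± 0.08 SE on the log2 scale, adjusted p = 1.21e-07). It also fell in Ime4 (-0.30 ± 0.08 SE on the log2 scale, adjusted p = 0.0411) and in CG6422 (-0.31 ± 0.08 SE on the log2 scale, adjusted p = 0.0106).

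By log2 fold change, the members that fell furthest were lncRNA:CR45566, lncRNA:CR44043, asRNA:CR44599 and asRNA:CR44029. On 3R, lncRNA:CR45566 is antisense to mino, a glycerol-3-phosphate acyltransferase gene, with 70.2% of its exon bases free, and stood at 1.20, 0.904 and 1.33 CPM in the control and 0.143, 0.673 and 0.402 CPM in Fl2d (-1.46 ± 0.38 SE on the log2 scale, adjusted p = 0.00393), while mino was not called (0.06, adjusted p = 0.288). On 2R, lncRNA:CR44043 went from 4.96, 4.87 and 5.04 CPM to 1.052, 2.50 and 1.91 CPM (-1.44 ± 0.21 SE on the log2 scale, adjusted p = 1.5e-05), with all Fl2d libraries below the control. It lies antisense to l(2)41Ab without shared exon bases, and that gene also fell (-1.10 ± 0.31 SE on the log2 scale, adjusted p = 0.00773). On 2L, asRNA:CR44599 is antisense to loqs, whose product is a double-stranded RNA binding partner of Dicer-1, and 27.8% of its exon bases are free. It stood at 8.68, 7.82 and 8.26 CPM in the control and at 3.15, 3.99 and 4.17 CPM in Fl2d, well separated (-1.13 ± 0.18 SE on the log2 scale, adjusted p = 3.75e-05), while loqs did not pass the test (0.13, adjusted p = 0.111). On chromosome 4, asRNA:CR44029 is antisense to the synaptic vesicle priming gene unc-13 with 86.9% of its exon bases free. It stood at 13.1, 9.81 and 10.1 CPM in the control and 3.20, 7.64 and 5.23 CPM in Fl2d (-1.03 ± 0.24 SE on the log2 scale, adjusted p = 0.00161), and unc-13 fell too (-0.49 ± 0.11 SE on the log2 scale, adjusted p = 0.00151).

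Members and their coding partners could be set side by side in Fl2d. Of the 105 antisense members with a tested partner, 44 were called, and 52 had a called partner. A called coding gene lay opposite 21 of the 44 called members and opposite 31 of the 61 members not called. In 17 of the 21 pairs with both called, both moved the same way (5 higher, 12 lower) and in 4 they moved oppositely. Over the 105 pairs, Pearson's r of the log2 fold changes was 0.35, a description across loci whose values share the same libraries and, in part, the same bases. The 23 other called antisense members had a partner that did not pass the test. A shared fall was that of asRNA:CR44029 with unc-13 (-1.03 and -0.49), and a shared rise that of asRNA:CR44989 with mEFG1, a mitochondrial elongation factor gene (1.01 and 0.46). Opposite moves were those of lncRNA:CR44331 and puc, the JNK phosphatase gene (0.82 and -0.25), lncRNA:CR43989 and IRSp53 (0.74 and -0.49), asRNA:CR46029, with 38.6% of its exon bases free, and the guanylyl cyclase gene Gyc89Db (-0.49 and 1.03), and lncRNA:CR45973 and CG13248 (-0.46 and 0.37). The pair of lncRNA:CR44331 and puc shares no exon bases. Of the 19 members whose nearest coding gene lies beside them on the same strand, 7 were called, and the gene beside them was called for 5 of these 7 and for 7 of the 12 not called, small counts whose difference was not tested. Of the 5, 4 went downward with the gene: lncRNA:CR44526 with hry, lncRNA:CR43337 with Reg-2, lncRNA:CR44522 with the lactate dehydrogenase gene Ldh, and lncRNA:CR45102 with the Max partner gene Mnt. The member call of lncRNA:CR44522 was lost without Fl2d replicate 1 (adjusted p = 0.0752) or Control replicate 3 (0.0554).

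**Figure D3:**
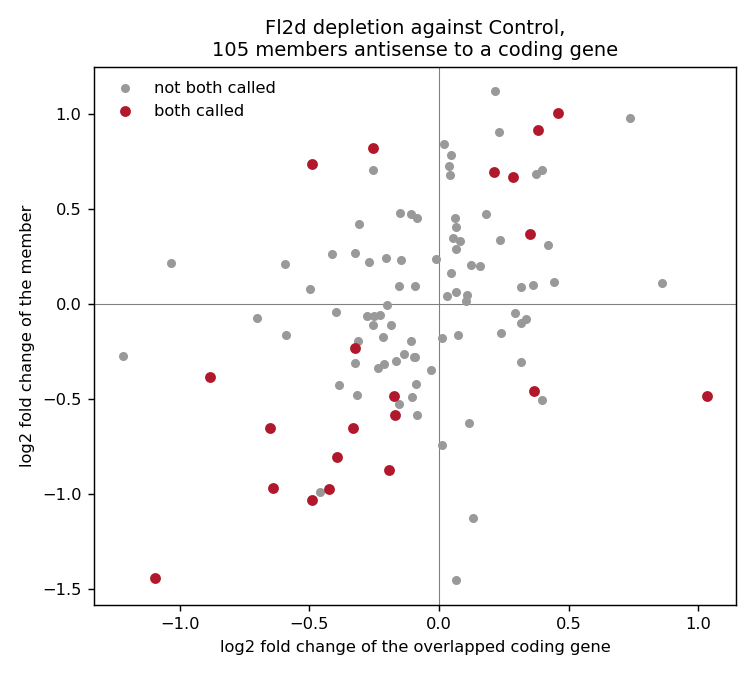
Log2 fold change in Fl2d against the control of 105 members (vertical axis) and of the coding gene each overlaps on the other strand (horizontal axis), with pairs in which both were called in red. Of the 21 red points, 17 lie in the quadrants of equal direction, and r over all points was 0.35.

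Depletion of Ime4 called 6 members higher and 2 lower (4.08%, against a background of 3.72%, or 1.77% higher and 1.95% lower), with a median log2 fold change of 0.06 over the members and 0.00 over all genes. The count was 2 without Control replicate 2, 5 without Control replicate 3, Ime4 replicate 1 or Ime4 replicate 2, and 4 without Ime4 replicate 3, and it was 17 without the pair of libraries low in mitochondrial ribosomal RNA, neither of which is an Ime4 or control library, where 7.39% of all genes tested were called. Besides lncRNA:CR42862, described above, the intergenic lncRNA:CR43337 on 3L (620695 to 622316, minus strand), whose nearest coding gene is Reg-2, 14126 bases away on the same strand, fell. It stood at 23.9, 22.6 and 25.0 CPM in the control and 19.6, 17.7 and 17.2 CPM in Ime4. It was low in all 4 depletions of writer components, with 18.4, 19.8 and 17.3 CPM in CG7818, 18.4, 17.9 and 18.2 CPM in Ime4_CG7818 and 15.96, 18.6 and 15.1 CPM in Fl2d. None of these 12 libraries reached the lowest control library. The log2 fold changes were -0.38 ± 0.07 (SE), adjusted p = 0.00457 in Ime4, -0.36 ± 0.07 (SE), adjusted p = 0.00863 in CG7818, -0.39 ± 0.07 (SE), adjusted p = 0.00138 in Ime4_CG7818 and -0.52 ± 0.08 (SE), adjusted p = 1.5e-05 in Fl2d. The CG7818 call was lost without CG7818 replicate 3 (adjusted p = 0.0627). In the reader depletions it stood at 20.9 ± 0.36 CPM in CG6422 and 25.0 ± 1.5 CPM in YT521, neither called. Reg-2 fell in CG7818 (-0.53), Ime4_CG7818 (-0.29), Fl2d (-1.5) and YT521 (-0.33), with adjusted p of 0.00141, 0.034, 2.94e-10 and 0.0245.

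Among the members that rose in Ime4, lncRNA:CR44138 is a single exon of 493 bases on 3R antisense to CG9813, with all its exon bases free. It stood at 4.07, 3.23 and 4.65 CPM in the control, 5.39, 6.545 and 7.48 CPM in Ime4, 8.76, 8.02 and 7.46 CPM in Ime4_CG7818, 6.31, 7.69 and 4.88 CPM in Fl2d and 6.30, 6.31 and 6.71 CPM in CG6422. The mean of Ime4_CG7818 was the highest, and each of these groups lay above the control without overlap. The log2 fold changes were 0.71 ± 0.16 (SE), adjusted p = 0.012, 1.04 ± 0.15 (SE), adjusted p = 9.67e-05, 0.68 ± 0.16 (SE), adjusted p = 0.00187 and 0.71 ± 0.16 (SE), adjusted p = 0.00392 in that order. The Ime4 call was lost without Control replicate 2 (adjusted p = 0.107) or Ime4 replicate 3 (0.0682). Antisense to IRSp53 with 85.7% of its exon bases free, lncRNA:CR43989 was called higher in the same 4 depletions (0.75, 0.82, 0.74 and 0.92), from a control of 1.38 ± 0.37 CPM. Without Control replicate 2 its adjusted p was 0.231 in Ime4, 0.0882 in Ime4_CG7818 and 0.055 in Fl2d, and its Ime4 call was also lost without Control replicate 3 (0.0967), Ime4 replicate 1 (0.204) or Ime4 replicate 3 (0.0636).

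Also higher in Ime4, asRNA:CR44368 on 2R is antisense to CG18324 with 18.2% of its exon bases free. It rose from 6.19 ± 0.54 CPM to 8.56 ± 0.59 CPM in Ime4, 8.55 ± 0.68 CPM in Ime4_CG7818 and 8.45 ± 1.2 CPM in Fl2d (0.47, 0.46 and 0.45). The Ime4 call was lost without Control replicate 2 (adjusted p = 0.103), Control replicate 3 (0.0731) or Ime4 replicate 1 (0.108), and the Ime4_CG7818 call without Control replicate 2 (0.0578).

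The intergenic lncRNA:CR43626 on 3L (3249340 to 3254504, plus strand) had higher values in the single depletions than in the double. It stood at 3.63, 2.54 and 2.97 CPM in the control, 4.89, 5.31 and 5.19 CPM in Ime4, 4.75, 4.83 and 4.37 CPM in CG7818, 2.71, 2.35 and 3.18 CPM in Ime4_CG7818 and 5.07, 5.24 and 6.08 CPM in Fl2d. Ime4, CG7818 and Fl2d lay above the control in every library, while Ime4_CG7818 overlapped it. It was called in Ime4 (0.76 ± 0.17 SE on the log2 scale, adjusted p = 0.0132) and Fl2d (0.85 ± 0.17 SE on the log2 scale, adjusted p = 0.000497) and not in CG7818 (0.62 ± 0.17 SE on the log2 scale, adjusted p = 0.064). The Ime4 call was lost without Control replicate 2 (adjusted p = 0.11) or Ime4 replicate 2 (0.0567). Tested directly, Ime4_CG7818 was lower than Ime4 (-0.90 ± 0.18 SE on the log2 scale, adjusted p = 0.039) and lower than CG7818 (-0.76 ± 0.18 SE on the log2 scale, adjusted p = 0.0299). The former call did not hold when any 1 of its 6 libraries was left out (highest adjusted p 0.265, without Ime4_CG7818 replicate 2), and the latter was lost without each of CG7818 replicates 1, 2 and 3 (0.0866, 0.085 and 0.101) and Ime4_CG7818 replicates 1 and 2 (0.141 and 0.144).

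Depletion of CG7818 alone called 2 members, both lower, or 1.02% against a background of 2.32% (1.1% higher and 1.22% lower). No member was called higher by edgeR, and DESeq2 called 4 members in all. In either direction, 35 members had an unadjusted p under 0.05 in edgeR, a count with no share over all genes beside it. Leaving out single libraries gave 0 to 2 calls, with 0 without CG7818 replicate 3 and 1 without CG7818 replicate 2, Control replicate 1 or Control replicate 2, and leaving out the pair low in mitochondrial ribosomal RNA, which is not in these groups, gave 8, where 4.15% of all genes tested were called. Besides lncRNA:CR43337 the call was lncRNA:CR44417 on 2R, antisense to Mapmodulin, with all its exon bases free. It stood at 20.8, 20.7 and 19.8 CPM in the control and 16.4, 13.4 and 14.1 CPM in CG7818, below the control throughout (-0.48 ± 0.13 SE on the log2 scale, adjusted p = 0.0462). This call was lost without CG7818 replicate 2 (adjusted p = 0.173) or 3 (0.154) and without Control replicate 1 (0.128), 2 (0.135) or 3 (0.0895). It fell as well in Fl2d (-0.53 ± 0.13 SE on the log2 scale, adjusted p = 0.00229), while Mapmodulin was called in neither (0.09 and -0.16).

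The double depletion Ime4_CG7818 called 12 members higher and 2 lower, 7.14% against a background of 11.4%, or 6.29% higher and 5.13% lower by direction. Without the pair low in mitochondrial ribosomal RNA, not part of either group, the count was 20, with 14 higher and 6 lower. This count has no share over all genes at the same setting beside it. The count fell to 6 without Control replicate 2, 8 without Ime4_CG7818 replicate 1 and 9 without Ime4_CG7818 replicate 2. A change of at least 2-fold was called in 3 members, against a background of 0.825%: asRNA:CR44989, lncRNA:CR43264 and lncRNA:CR44138. Of these, asRNA:CR44989 on 2L is antisense to mEFG1 with 9.15% of its exon bases free. It stood at 0.664, 0.626 and 0.841 CPM in the control and 1.63, 1.53 and 1.76 CPM in Ime4_CG7818, with every library above the control (1.22 ± 0.27 SE on the log2 scale, adjusted p = 0.00498). It rose in Fl2d too (1.01 ± 0.28 SE on the log2 scale, adjusted p = 0.00724), and mEFG1 was called in Fl2d (0.46) but not in Ime4_CG7818 (0.16, adjusted p = 0.295). On 2L, lncRNA:CR44218, antisense to the chromatin remodeller gene kis with all its exon bases free, rose from 1.06, 0.556 and 0.791 CPM to 1.502, 1.35 and 1.52 CPM (0.89 ± 0.28 SE on the log2 scale, adjusted p = 0.046), a call lost without each of Ime4_CG7818 replicates 1, 2 and 3 (0.13, 0.0817 and 0.108) and Control replicates 2 and 3 (0.263 and 0.0923). This call was also lost in DESeq2 (adjusted p = 0.0589). On X, lncRNA:CR43493 fell from 41.8, 42.8 and 40.1 CPM to 28.7, 26.5 and 32.6 CPM (-0.51 ± 0.13 SE on the log2 scale, adjusted p = 0.0149), a call lost without Control replicate 2 (adjusted p = 0.0641), Ime4_CG7818 replicate 1 (0.0648) or Ime4_CG7818 replicate 2 (0.0811). Its antisense partner l(1)G0196, an inositol pyrophosphate kinase gene, fell as well (-0.27 ± 0.06 SE on the log2 scale, adjusted p = 0.0036).

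Comparing the double with the single depletions, 1 member was called against Ime4 (0.51%, against a background of 0.156%, or 0.0359% higher and 0.12% lower) and 4 against CG7818 (2.04%, against 2.17%, or 0.933% higher and 1.23% lower). The former was lncRNA:CR43626, and leaving out any 1 of the 6 libraries left 0 calls. In the full comparison 20 members had an unadjusted p under 0.05 in either direction, a count with no share over all genes beside it. Against CG7818, lncRNA:CR43626 was lower, while lncRNA:CR44522 (0.75), lncRNA:CR44138 (0.73) and lncRNA:CR43918 (0.48) were higher. Their adjusted p were 0.0196, 0.0171 and 0.0375. None of the 4 kept its call under every omission of 1 library. The count was 0 without Ime4_CG7818 replicate 1 or 2 and 1 without CG7818 replicate 1, 2 or 3. Without the pair low in mitochondrial ribosomal RNA, not in these groups, the counts were 1 against Ime4 and 6 against CG7818.

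Fl2d differed from the double depletion in 52 members, 20 higher and 32 lower (26.5%, against a background of 36.9%, or 18.6% higher and 18.3% lower). The balance of directions rests on 1 library: without Fl2d replicate 1 the count was 33, with 20 higher and 13 lower, and without it and YT521 replicate 2 it was 41, with 25 higher and 16 lower. Among the members higher in Fl2d than in Ime4_CG7818 were asRNA:CR45195 (0.74 ± 0.08 SE on the log2 scale, adjusted p = 2.23e-07), asRNA:CR44960 (1.09) and lncRNA:CR31044 (0.84). Among those lower were lncRNA:CR44526 (-1.10 ± 0.11 SE on the log2 scale, adjusted p = 1.57e-07), lncRNA:CR45566 (-1.45) and lncRNA:CR44043 (-1.01).

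**Figure D4:**
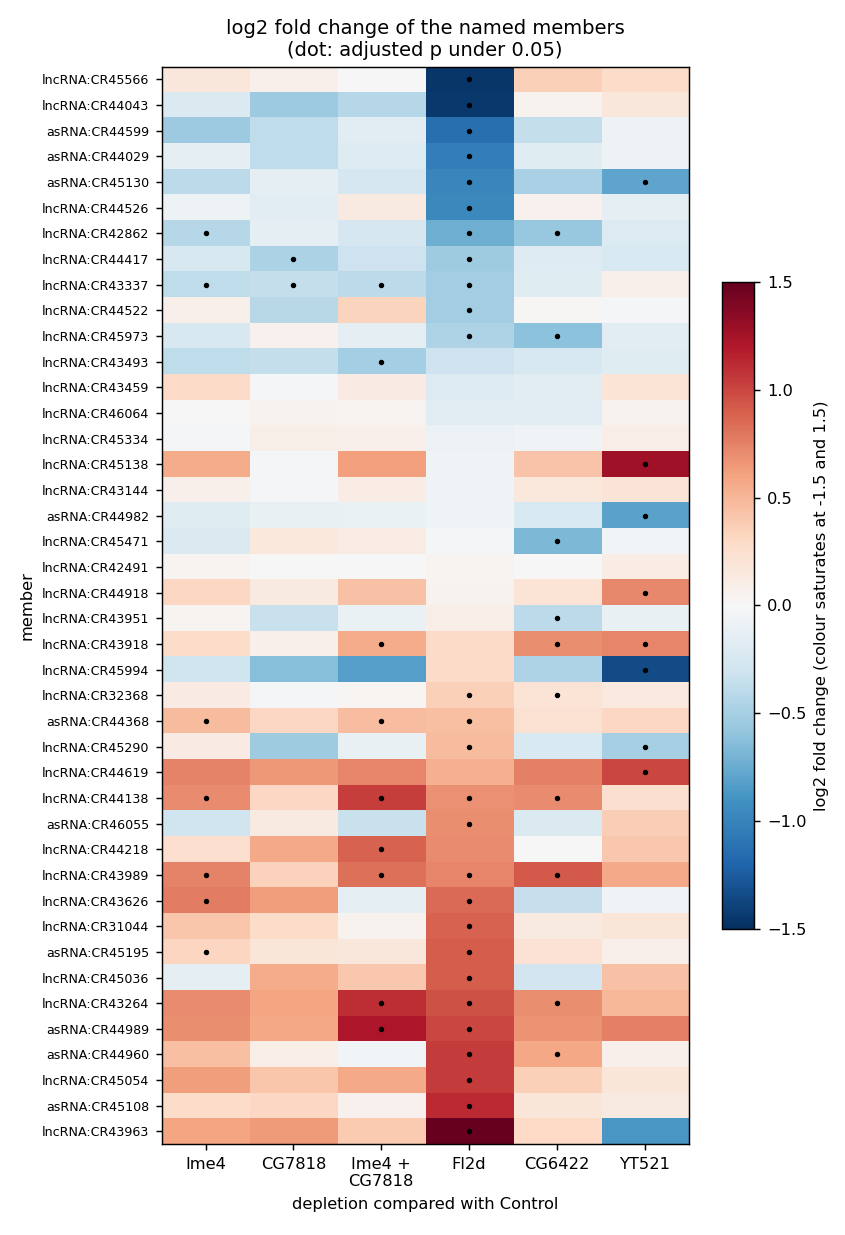
Log2 fold change against the control (red higher, blue lower, colour limits -1.5 and 1.5) of 42 members in the 6 depletions, ordered by the value in Fl2d, with a dot where the adjusted p was under 0.05. lncRNA:CR43337 has a dot in the 4 writer columns, and lncRNA:CR43918 in Ime4_CG7818 and both readers but not in Fl2d.

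Depletion of the reader CG6422 called 10 members higher and 7 lower, or 8.67%, against a background of 19.1% (8.88% higher and 10.2% lower). Without Control replicate 2 the count was 10, without CG6422 replicate 2 it was 11, and without the pair low in mitochondrial ribosomal RNA, not part of either group, it was 30, with 13 higher and 17 lower, where 24.5% of all genes tested were called. The share of members differed by level. Of the 39 members of at least 10 CPM, 9 were called, 5 higher and 4 lower (23.1%, against 21.6% of all genes at that level). At 5 CPM or more 25.4% of 59 members were called against 21.5% of all genes. Between 1 and 3 CPM 2 of 100 members were called, with no share over all genes of that class beside it. Of all genes, 1549 of 7510 at 1 CPM or more were called, and 1502 of 7079 at 2 CPM or more. The 7 called members with a tested antisense partner all differed from it in the sign of the log2 fold change, and in 2 of these pairs both were called. Pearson's r over all 105 antisense pairs was -0.07, and of 5 called members with a neighbour on the other strand 4 shared its sign. The largest fall was that of lncRNA:CR45471 on 2R (4730481 to 4731395, plus strand), which lies between coding genes near the cohesin loader gene Nipped-B, with 17.8% of its exon bases free. It stood at 6.06, 7.16 and 5.93 CPM in the control and 4.39, 3.75 and 3.99 CPM in CG6422. No library of another group was as low as the CG6422 libraries (-0.67 ± 0.12 SE on the log2 scale, adjusted p = 0.00104), and no other depletion was called.

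On 3L, lncRNA:CR45973 is antisense to CG13248 with 86.1% of its exon bases free. It fell from 14.7, 11.9 and 12.9 CPM to 8.17, 8.41 and 9.10 CPM in CG6422 (-0.62 ± 0.13 SE on the log2 scale, adjusted p = 0.00326) and to 7.27, 10.9 and 10.5 CPM in Fl2d (-0.46 ± 0.13 SE on the log2 scale, adjusted p = 0.0082). The Fl2d call was lost without Fl2d replicate 1 (adjusted p = 0.0619) or Control replicate 1 (0.0504). CG13248 was higher in CG7818, Ime4, Ime4_CG7818 and Fl2d (0.78, 0.62, 0.90 and 0.37) and was not called in CG6422 (0.08). Also on 3L, lncRNA:CR43951 lies antisense to the caspase inhibitor gene Diap1 with no shared exon bases. It went from 6.33, 6.19 and 5.88 CPM to 4.97, 4.32 and 4.74 CPM (-0.40 ± 0.13 SE on the log2 scale, adjusted p = 0.0378), a call lost without CG6422 replicate 2 (0.152) or 3 (0.0778) and without Control replicate 1 (0.0965), 2 (0.102) or 3 (0.0574).

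The small single-exon lncRNA:CR43918, 288 bases on 2R (13224175 to 13224462, minus strand), rose in both reader depletions. It is antisense to Dp, the dimer partner gene of E2F, with all its exon bases free. The control libraries stood at 3.54, 4.03 and 3.91 CPM, Ime4_CG7818 at 5.55, 5.28 and 6.18 CPM, CG6422 at 6.11, 6.62 and 5.86 CPM and YT521 at 6.94, 6.34 and 5.81 CPM. Each of these 9 libraries lay above every control library. The log2 fold changes were 0.56 ± 0.12 (SE), adjusted p = 0.00371 in Ime4_CG7818, 0.69 ± 0.12 (SE), adjusted p = 0.000598 in CG6422 and 0.73 ± 0.12 (SE), adjusted p = 0.000461 in YT521. Dp was called in none of the 6 comparisons, with log2 fold changes from -0.09 to 0.08.

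Depletion of the reader YT521 called 9 members higher and 4 lower, 6.63% against a background of 6.52% (3.27% higher and 3.25% lower). The count was 5 without Control replicate 2 or YT521 replicate 1 and 8 without Control replicate 3. Without the pair low in mitochondrial ribosomal RNA it was 23, with 20 higher and 3 lower, where 7.12% of all genes tested were called. As a whole the members sat above the control: 133 of 196 had a log2 fold change above 0, with a median of 0.12 against 0.01 over all genes tested. This median ran from 0.07 to 0.17 over the alternatives tried. By level, the medians were 0.12 at 10 CPM or more, 0.10 between 3 and 10 CPM and 0.14 between 1 and 3 CPM. Most of the genes tested are coding, and whether the shift is particular to the members was not tested. In the other depletions the member medians lay between -0.06 in Fl2d and 0.06 in Ime4.

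**Figure D5:**
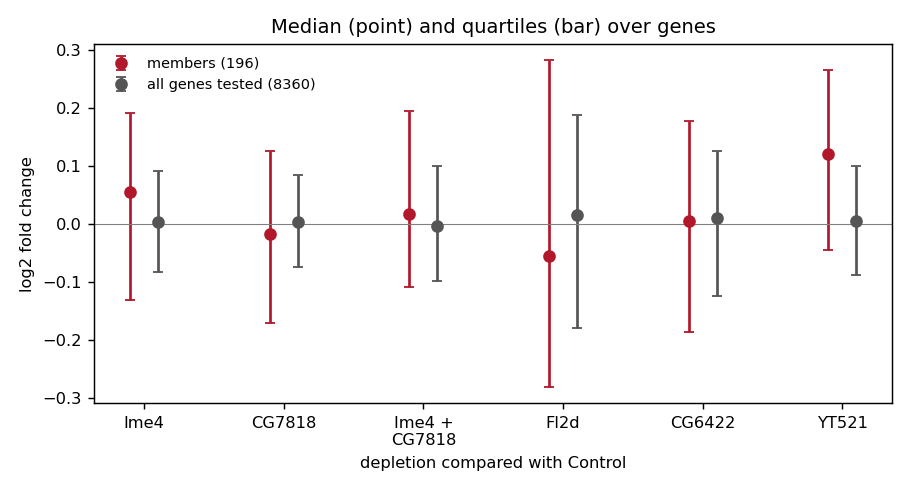
Median (point) and quartiles (bars) of the log2 fold change against the control over the 196 members (red) and over all 8360 genes tested (grey), for each depletion. In YT521 the member median was 0.12 against 0.01 over all genes.

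Of the single members, lncRNA:CR45138 on 2R rose most in YT521. It is antisense to peo, a ubiquitin-conjugating enzyme variant gene, with all its exon bases free, and stood at 1.151, 0.522 and 0.791 CPM in the control and 2.29, 1.81 and 1.76 CPM in YT521. All YT521 libraries lay above all control libraries (1.27 ± 0.26 SE on the log2 scale, adjusted p = 0.00399), and the call was lost without Control replicate 2 (adjusted p = 0.0514). Next came lncRNA:CR44619 on X, with 62.7% of its exon bases free, at 0.885, 0.696 and 0.742 CPM in the control and 1.96, 1.23 and 1.47 CPM in YT521 (1.0 ± 0.25 SE on the log2 scale, adjusted p = 0.0192). Its means were above the control in the other 5 depletions too, from 1.12 ± 0.19 CPM to 1.33 ± 0.44 CPM, with none called. Its YT521 call was lost without Control replicate 2 (0.109), Control replicate 3 (0.0615) or YT521 replicate 1 (0.116). The intergenic lncRNA:CR44918 on 2L went from 2.35, 2.50 and 2.87 CPM to 4.78, 4.31 and 3.62 CPM (0.72 ± 0.16 SE on the log2 scale, adjusted p = 0.00887), lost without Control replicate 2 (0.0508) or YT521 replicate 1 (0.0561).

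The 4 members that fell in YT521 were of low level. On 2R, lncRNA:CR45994 lies on the same strand as lbk, a gene for a membrane protein with leucine-rich repeats. It stood at 1.59, 1.22 and 1.14 CPM in the control and 0.857, 0.399 and 0.323 CPM in YT521, clear of the control (-1.34 ± 0.31 SE on the log2 scale, adjusted p = 0.0111). That call was lost without Control replicate 1 (adjusted p = 0.0555), YT521 replicate 2 (0.0587) or YT521 replicate 3 (0.0546). The host gene lbk fell too (-0.28 ± 0.05 SE on the log2 scale, adjusted p = 0.000889). On 2R, asRNA:CR45130 is antisense to Vps13, a lipid transfer protein gene, with 12.3% of its exon bases free, and stood at 1.505, 1.25 and 1.73 CPM in the control and 0.694, 0.870 and 0.969 CPM in YT521 (-0.79 ± 0.21 SE on the log2 scale, adjusted p = 0.025). It was lower in Fl2d as well (-0.98 ± 0.23 SE on the log2 scale, adjusted p = 0.00175). Its YT521 call was lost without Control replicate 1 (0.0656), Control replicate 3 (0.103), YT521 replicate 1 (0.107) or YT521 replicate 2 (0.0639). That call was also lost in DESeq2 (adjusted p = 0.0582) and in a fit of these groups alone (0.0578). The remaining calls, asRNA:CR44982 (-0.80 ± 0.21 SE on the log2 scale, adjusted p = 0.0261), which has no free exon base, and lncRNA:CR45290 (-0.50 ± 0.15 SE on the log2 scale, adjusted p = 0.0465), were less stable. The former was lost without Control replicates 1, 2 or 3 (0.0588, 0.12 and 0.0506) or YT521 replicates 1 or 2 (0.0727 and 0.128), and the latter without any 1 of the 6 libraries (0.0546 without YT521 replicate 3 to 0.156 without YT521 replicate 2). In Fl2d, lncRNA:CR45290 rose (0.47 ± 0.14 SE on the log2 scale, adjusted p = 0.0089), a call lost without Fl2d replicate 2 (0.0741).

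Set directly against each other, the readers differed in 22 members, 19 higher in YT521 and 3 higher in CG6422 (11.2%, against a background of 12.9%, or 6.67% higher and 6.21% lower). Without the pair low in mitochondrial ribosomal RNA, which holds YT521 replicate 2, 20 members were higher in YT521 and 0 higher in CG6422. Of these calls 13 were among the 22. The count was 13 without CG6422 replicate 1, 10 without CG6422 replicate 2, 8 without CG6422 replicate 3, 14 without YT521 replicate 1 and 12 without YT521 replicate 2. The median log2 difference was 0.12 over the members and 0.00 over all genes, and 134 of 196 members were higher in YT521. Whether this too is particular to the members was not tested. Besides lncRNA:CR42862, the members higher in YT521 included lncRNA:CR45471 (0.63 ± 0.12 SE on the log2 scale, adjusted p = 0.00144). Among those higher in CG6422 were asRNA:CR44960 (-0.50, adjusted p = 0.0329) and lncRNA:CR44138 (-0.47, adjusted p = 0.0442). The call of lncRNA:CR44138 was lost without any 1 of the 6 libraries, and that of asRNA:CR44960 without CG6422 replicate 1 (0.135) or 3 (0.0971) or YT521 replicate 1 (0.14) or 2 (0.0988).

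At the other end, the members whose group means varied least, among those with a mean of at least 5 CPM, were lncRNA:CR42491, lncRNA:CR46064 and lncRNA:CR45334. On X, lncRNA:CR42491 overlaps the ribosomal protein gene RpL22 on the same strand with 49.5% of its exon bases free. Its control libraries stood at 17.7, 18.1 and 15.6 CPM, and the 6 log2 fold changes ran from -0.01 in CG7818 to 0.11 in YT521, each with a standard error of about 0.10. RpL22 was called lower in Ime4, Ime4_CG7818 and CG6422 (-0.22, -0.18 and -0.30).

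Over the 21 libraries, the genes whose log2 CPM followed a member most closely, or ran most opposed to it, were found by Pearson's r among all genes tested. For asRNA:CR45195 they were Stt3A, an oligosaccharyltransferase subunit gene, at 0.942 and Arc1, a capsid-forming Gag-like gene, at 0.938, and the gene most opposed was Fmo-2 at -0.96. For lncRNA:CR44526 they were CG11050 at 0.967 and cN-IIIB, a nucleotidase gene, at 0.957, with CG7728 most opposed at -0.97. For lncRNA:CR42862 they were CG6700 at 0.951 and muskelin at 0.927, with HINT1 most opposed at -0.93. These values are a description over libraries that share groups and scaling.

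The non-coding RNAs with a name of their own were 8 of the genes tested, and 5 of them were called in Fl2d, 2 higher and 3 lower, where 41.3% of all genes tested were called. Best known are Hsromega, which organises the omega speckles of the nucleus, and roX2, which guides the dosage compensation complex to the male X. In Fl2d, lncRNA:Hsromega fell from 118 ± 22 CPM to 85.2 ± 14 CPM with groups that overlap (-0.47 ± 0.11 SE on the log2 scale, adjusted p = 0.00145), and lncRNA:roX2 fell from 108 ± 5.3 CPM to 69.5 ± 28 CPM (-0.63 ± 0.19 SE on the log2 scale, adjusted p = 0.0106), with Fl2d replicate 1 the lowest library at 38.2 CPM. Also in Fl2d, lncRNA:dntRL fell (-0.87 ± 0.16 SE on the log2 scale, adjusted p = 0.000163) and lncRNA:noe, at 0.203 CPM in the control, rose (1.59 ± 0.41 SE on the log2 scale, adjusted p = 0.00408). The RNA lncRNA:mimi rose in 5 of 6 depletions. It stood at 63.7, 53.8 and 62.0 CPM in the control, 88.0, 87.2 and 89.0 CPM in Ime4, 99.6, 95.7 and 102 CPM in Ime4_CG7818, 77.1, 99.5 and 77.8 CPM in Fl2d, 91.2, 91.2 and 89.98 CPM in CG6422 and 107, 87.1 and 96.8 CPM in YT521. Every one of these libraries lay above the control. The log2 fold changes were 0.56, 0.73, 0.51, 0.60 and 0.70, with adjusted p from 6.4e-06 to 0.000383, and CG7818 was not called (0.23, adjusted p = 0.168).

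Genes of the machinery that trims and ends non-coding transcripts were also measured. Of 23 genes listed for the nuclear exosome, its cofactors and transcription termination, 20 were tested, and in Fl2d 10 of them were called higher and 3 lower (65.0%, where 41.3% of all genes tested were called). The genes were matched by symbol only. Whether the matched Nrd1 and the Xrn1 gene pcm belong to this machinery in the fly was not checked. The exosome core subunit gene Ski6 rose from 22.1 ± 1.4 CPM to 33.2 ± 3.6 CPM (0.58 ± 0.08 SE on the log2 scale, adjusted p = 3.83e-06). The other subunit genes Csl4 (0.43) and Mtr3 (0.41), the nuclease gene Dis3 (0.24) and the helicase gene Mtr4 (0.29) rose too. Those that fell were Nab2 (-0.26) and Pabp2 (-0.23), both for poly(A) binding proteins, and Ars2 (-0.13), whose product bridges the cap-binding complex to decay. Of 17 listed symbols of the Integrator complex, which cleaves nascent RNA, 13 matched a gene and were tested. The symbols IntS5, IntS7, IntS8 and IntS13 matched none, and their genes may be in the list under another symbol. In Fl2d 4 of the 13 were called higher and 2 lower (46.2%, near the 41.3% of all genes tested). The latter were IntS3 (-0.54 ± 0.12 SE on the log2 scale, adjusted p = 0.00161) and IntS1 (-0.13). In YT521 only IntS1 of these 13 was called, and it was lower (-0.34 ± 0.04 SE on the log2 scale, adjusted p = 3.44e-05). Whether the levels of these genes bear on the members was not tested.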

How the data were processed

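RNA-seq libraries of 7 groups with 3 libraries each were analysed from gene counts as deposited, 1 table per library. Per the submitters' processing notes, the tools used by the authors included STAR 2.4.0h and HTSeq 0.6.1, besides CASAVA 1.8.4 and DESeq2 1.6.3, on build BDGP6. For each tool's role, the strand setting and the annotation release, nothing is stated. Per the labels' protocols, poly(A) RNA was selected with oligo(dT) beads. Lines that name no gene were dropped: reads without a feature made up 1.46% to 1.91%, ambiguous reads 0.72% to 0.89% and reads without a unique place 11.0% to 18.7%. Symbols came from the supplied FlyBase name table, and positions from Ensembl release 115 (build BDGP6.54), a later annotation than that used for counting.

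Genes were filtered with edgeR 4.0.16 (filterByExpr, minimum count 10), scaled by TMM and fitted with its quasi-likelihood model over all 21 libraries in R 4.3.3, with Benjamini-Hochberg adjustment over 8360 genes and calls at 0.05. The common biological coefficient of variation was 6.37%. Levels are TMM-scaled CPM, except that the choice of members, their medians and their levels per kilobase used plain CPM. Errors are SDs over 3 libraries or standard errors (SE) of log2 fold changes. No pair of replicates agreed within sampling noise (chi-square per gene of at least 4.52). Scripts were tested on simulated data. DESeq2 1.42.0, other filters and thresholds, a replicate block and leaving out libraries were alternatives.

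The members and gene lists were chosen with earlier results of these data known. Members named are, among others, the 8 most abundant, the 4 highest and 4 lowest called log2 fold changes of each comparison with the control, up to 2 at either end of each comparison between depletions and the 8 with the smallest p over 7 groups. lncRNA:CR44331, asRNA:CR46029 and lncRNA:CR45102 were named after their values were seen. Promoter sequences and motifs were not used here.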

Additional observations from a re-analysis of the deposited data

How the results depend on the processing

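Of 134 calls of named members, 81 held under every alternative tried, 53 were lost under at least 1, and no direction was reversed. Most losses given with single members are those without 1 library, and some of those calls were also lost under other settings. Of 157 recomputed counts of members called, 110 stayed within 1.5 times. Without a filter on low counts Ime4 gave 14 calls in place of 8, CG7818 7 in place of 2, and Ime4_CG7818 against Ime4 2 in place of 1. Fits of only the groups compared gave 14 for Ime4, 6 for CG7818, 4 for Ime4_CG7818 against Ime4, 8 in place of 4 against CG7818, and 12 in place of 22 for YT521 against CG6422. DESeq2 gave 4 for CG7818. Without the pair of libraries low in mitochondrial ribosomal RNA, a setting added after the results were known, Ime4 gave 17, CG7818 8, CG6422 30 in place of 17 and YT521 23 in place of 13. The cause was not tested.

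Leaving out single libraries gave 2 to 8 calls for Ime4, 0 to 2 for CG7818, 6 to 13 for Ime4_CG7818, 57 to 72 for Fl2d, 10 to 15 for CG6422, 5 to 11 for YT521, 0 for Ime4_CG7818 against Ime4, 0 to 3 against CG7818, 33 to 69 for Fl2d against Ime4_CG7818, 8 to 15 for YT521 against CG6422 and 84 to 96 over the 7 groups. With members chosen at 5 CPM or more, 10.2% were called in Ime4, 13.6% in Ime4_CG7818, 42.4% in Fl2d, 25.4% in CG6422, 0% in Ime4_CG7818 against Ime4, 37.3% in Fl2d against Ime4_CG7818, 18.6% in YT521 against CG6422 and 69.5% over the 7 groups, where 0.5 and 2 CPM gave 38% and 55.1%. Of all genes tested at 5 CPM or more, the shares in the same order were 4.10%, 12%, 44.8%, 21.5%, 0.153%, 41.5%, 13.3% and 60.0%.

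Deviations of depletion libraries from their group mean were correlated with those of the control libraries. The 18 same-numbered pairs gave -0.23 to 0.17 and the 36 others -0.23 to 0.18. Depletions were not set against each other, so whether the numbers mark a shared day or culture was not tested. With the replicate block, the counts were 8 for Ime4, 2 for CG7818, 17 for Ime4_CG7818, 70 for Fl2d, 22 for CG6422, 18 for YT521, 1 and 4 for the double against the single depletions, 55 for Fl2d against Ime4_CG7818, 21 for YT521 against CG6422 and 97 over the 7 groups. Members of 1 to 3 CPM rest on few counts, so differences among them may not be detectable at this depth.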
